A study of Homo sapiens with 12 samples.

Results

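The combined treatment compared here joins a short hairpin RNA against Wip1 with an inhibitor of the kinase ATM in HCT116, a line of human colorectal carcinoma cells. Its members were chosen by label: 3 arrays labelled Wip1SH + ATMi were set against 3 arrays labelled WT, so that 6 of the 12 arrays of the series carry the comparison. WT cells had the parental genotype and no treatment. Wip1SH + ATMi cells carried the hairpin and received 10 µM of the inhibitor for 3 days, renewed daily. The remaining groups, with 3 arrays each, were WT + ATMi, parental cells given the same dose for the same time, and Wip1SH, hairpin cells without it. All cultures grew in DMEM with fetal calf serum, and the series text calls the replicates biological. No group carried a control hairpin, no vehicle is named for the untreated groups, and the sources used here do not say whether the hairpin cells were a clone or a pool. Hairpin cells and parental cells can therefore differ in more than Wip1, and treated and untreated cells in more than ATM activity; these cannot be told apart.

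Wip1, the product of PPM1D, is a serine/threonine phosphatase that p53 induces and that removes phosphate from p53, ATM, CHK2 and histone H2AX, closing the DNA damage response. ATM is the kinase that double-strand breaks activate and that phosphorylates several of the same proteins. Depleting the phosphatase and inhibiting the kinase therefore act on opposite sides of a shared set of substrates, and HCT116 cells carry wild-type p53.

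Expression was read as the log2 of a normalized probe signal, where a difference of 1 is a doubling. The WT arrays had 17650 to 17929 detected probes and the Wip1SH + ATMi arrays 19505 to 20408. Arrays of the combined group were also brighter, with a mean raw signal of 694 ± 48.9 beside 524 ± 10.5 for WT (SD, n = 3 arrays each). The number of detected probes thus moved with the groups, without overlap between these 2, and the part of it in the differences cannot be told apart from theirs. Arrays of a group correlated at 0.991 to 0.995 and WT arrays with Wip1SH + ATMi arrays at 0.976 to 0.979. Of 14 markers of colon epithelium 10 reached the tested set, and of 16 markers of blood, stromal, endothelial and glial cells 4 did (CD14, COL1A1, DCN and HBA2), none of which passed the test against WT. In a bulk culture, fewer cells in a given state and less RNA per cell cannot be told apart.

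PPM1D, the target of the hairpin, was read at 10.28, 10.43 and 10.31 on the WT arrays and at 8.86, 8.83 and 8.69 on the Wip1SH + ATMi arrays. The groups did not overlap, and the combined group lay 2.93-fold below WT (log2 difference -1.55 ± 0.10, standard error with n = 3 against 3; adjusted p = 2.31e-06, limma's moderated test with Benjamini-Hochberg adjustment, as for every adjusted p here). Against Wip1SH without the inhibitor the difference was 0.11 (adjusted p = 0.486). ATM mRNA, which an inhibitor of the kinase need not change, differed from WT by 0.16 ± 0.17 (adjusted p = 0.488), and a second detected ATM probe gave 0.05.

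Of 11785 genes tested, 4791 (40.7%) differed between Wip1SH + ATMi and WT at an adjusted p under 0.05. They were 2774 higher genes (23.5%) and 2017 lower genes (17.1%). Most differences were small: the median size among called genes was 0.48 on the log2 scale, 260 genes reached 2-fold (146 higher, 1.24%, and 114 lower, 0.967%) and 11 reached 4-fold. In 5838 genes (49.5%) the 3 arrays of one group lay wholly above or below those of the other. The split between directions depends on the scaling: when the medians of all arrays were equalized over all probes it became 6361 higher and 386 lower, with the median of all genes at 0.40 in place of 0.04, and with medians equal over the tested probes 2167 higher and 3075 lower. Only 40 genes were called with the detected-probe number of each array in the model. Groups of genes are therefore given beside the median of all genes.

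**Figure D1:**
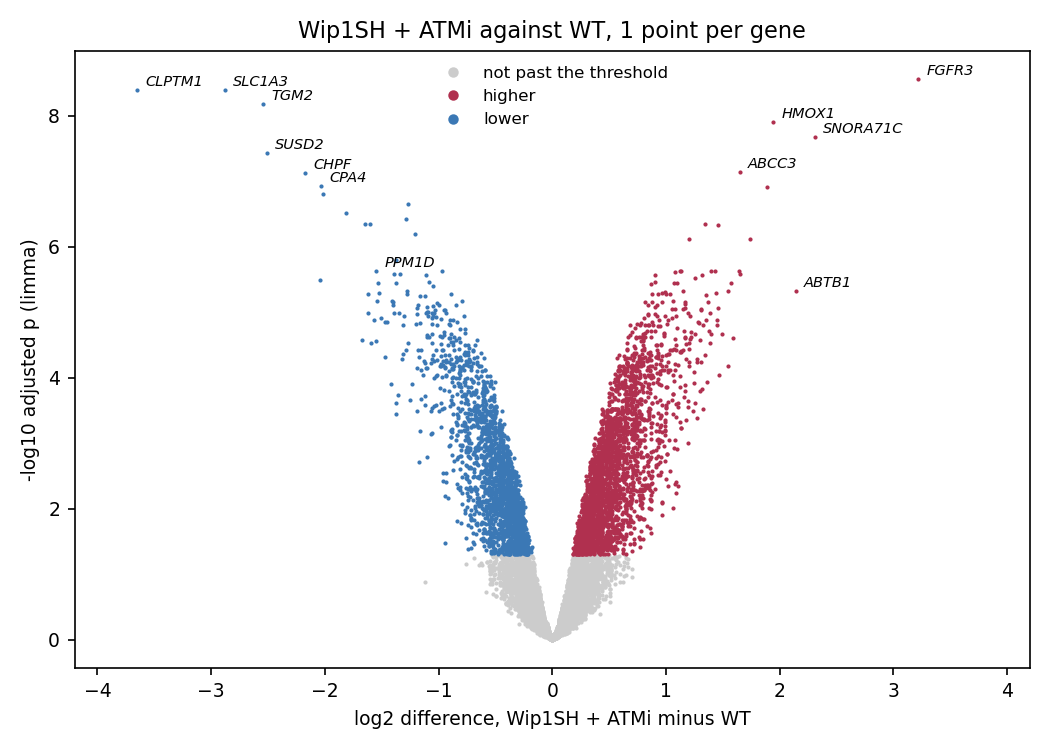
Each point is 1 of 11785 genes, plotted by its log2 difference between Wip1SH + ATMi and WT (horizontal axis) and by -log10 of limma's adjusted p (vertical axis). FGFR3 at 3.22 and CLPTM1 at -3.65 stand farthest to the right and the left, and 4791 coloured genes pass the threshold.

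The highest rise was that of FGFR3, a receptor tyrosine kinase for fibroblast growth factors. Its probe read 8.44, 8.12 and 8.32 in WT, 9.09, 9.10 and 9.18 in WT + ATMi, 10.07, 10.15 and 10.28 in Wip1SH, and 11.50, 11.52 and 11.52 in Wip1SH + ATMi. The 4 groups followed each other without overlap, and the combined group stood 9.33-fold above WT (3.22 ± 0.09, adjusted p = 2.71e-09). A second, dimmer FGFR3 probe did not follow (difference -0.18), and with the mean of both probes the gene rose by 1.52 (adjusted p = 2.79e-06), so the size of the rise depends on which probe is read. HMOX1, the enzyme that degrades heme, read 8.25, 8.26 and 8.25 in WT against 10.08, 10.22 and 10.28 in the combined group. That is a 3.83-fold rise (1.94 ± 0.07, adjusted p = 1.25e-08), and the single groups lay between, at differences of 0.98 for Wip1SH and 1.06 for WT + ATMi.

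ABCC3, an export pump for organic anions and bile salts, read 9.32, 9.34 and 9.46 in WT and 11.05, 11.05 and 10.97 in Wip1SH + ATMi. It rose 3.15-fold (1.65 ± 0.07, adjusted p = 7.23e-08), with 1.28 under the inhibitor alone and 0.37 in Wip1SH alone. TSKU, a secreted leucine-rich protein, showed the same order: it rose by 1.74 ± 0.10 in the combined group (adjusted p = 7.71e-07) and by 1.55 with the inhibitor alone, and its difference of 0.25 in Wip1SH did not pass the test (adjusted p = 0.0827). The H/ACA small nucleolar RNA gene SNORA71C ran the other way. It was not detected in WT, was read at 7.65, 7.66 and 7.75 in the combined group, at least 4.09-fold higher (adjusted p = 2.08e-08), and stood at 7.27, 7.20 and 7.49 in Wip1SH and at 5.0, 4.96 and 5.04 with the inhibitor alone. Further rises were those of the cyclophilin-like gene PPIL6 (at least 2.37-fold), the zinc-finger factor gene PRDM16 (at least 2.05-fold) and KRTDAP, a gene of keratinocyte differentiation (at least 2.58-fold), none of which was detected in WT. ABTB1 (2.14 ± 0.16), CREBRF, a regulator of CREB3-type transcription factors (1.65 ± 0.11), CCPG1, a receptor for autophagy of the endoplasmic reticulum (1.64 ± 0.11), and LURAP1L (1.57 ± 0.11) complete the 12 largest rises. ABTB1 was detected on 2 of 3 WT arrays, and a second CCPG1 probe showed a difference of -0.03.

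The largest fall was that of CLPTM1, a transmembrane protein gene. It read 10.89, 10.99 and 10.91 in WT, 7.80, 8.27 and 7.97 in Wip1SH, 10.60, 10.87 and 10.69 in WT + ATMi and 7.24, 7.34 and 7.27 in Wip1SH + ATMi. The combined group lay below every other array, 12.5-fold under WT (-3.65 ± 0.11, adjusted p = 3.98e-09), and most of that distance was already present in Wip1SH. SLC1A3, a glutamate and aspartate transporter, fell by 2.88 ± 0.09 (adjusted p = 3.98e-09) to a level at which 1 of 3 combined arrays detected it. TGM2, the tissue transglutaminase, read 8.81, 8.85 and 8.86 in WT and 6.32, 6.31 and 6.29 in the combined group, and fell 5.80-fold (-2.54 ± 0.09, adjusted p = 6.64e-09). Both single conditions lowered TGM2, by 1.58 in Wip1SH and by 0.99 in WT + ATMi.

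CHPF, the chondroitin polymerizing factor, read 10.91, 10.88 and 10.98 in WT, 9.46, 9.60 and 9.67 in Wip1SH and 8.76, 8.80 and 8.70 in Wip1SH + ATMi. It fell by 2.17 ± 0.10 (adjusted p = 7.50e-08), whereas the inhibitor alone gave 0.07 (adjusted p = 0.625). CPA4, a secreted carboxypeptidase, had 12.72, 12.71 and 12.63 in WT against 10.72, 10.60 and 10.67, a fall of 2.03 ± 0.10 (adjusted p = 1.17e-07), of which 1.64 was present with the inhibitor alone and 0.54 in Wip1SH. CDK6, the cyclin D kinase of the G1 phase, fell by 1.65 ± 0.09 (adjusted p = 4.49e-07), from 9.06, 8.91 and 9.15 to 7.24, 7.46 and 7.47. The remaining large falls were those of SUSD2 (-2.51 ± 0.10), the vitamin D hydroxylase CYP24A1 (-2.04 ± 0.15), the calcium-binding protein gene TESC (-2.02 ± 0.10), the EGF-family ligand NRG1 (-1.67 ± 0.17) and the calcium sensor VSNL1 (-1.62 ± 0.14). The cytokine gene IL32 was not detected in the combined group and was at least 3.10-fold lower there. NRG1 had 2 further probes with smaller differences of -0.44 and -0.51.

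**Figure D2:**
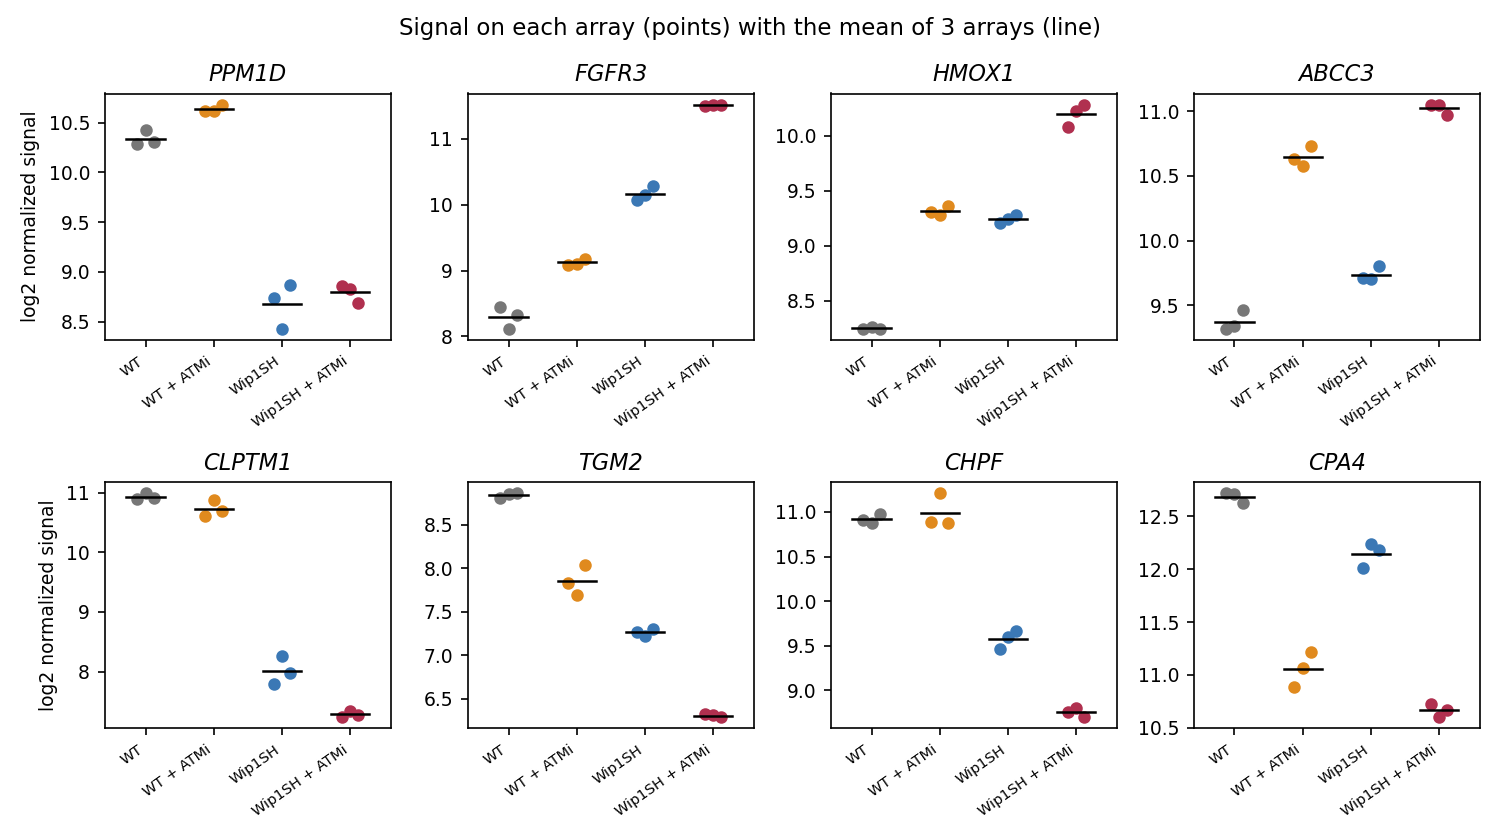
The log2 normalized signal of 8 genes on each of the 12 arrays (points) with the mean of 3 arrays per group (lines). PPM1D is low in both hairpin groups, FGFR3 and HMOX1 climb through the single conditions to the combined one, and CLPTM1 and CHPF fall mainly with the hairpin and CPA4 mainly with the inhibitor.

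Each list of genes is best read beside all genes. Where the balance of higher and lower members in the combined group against WT turned under another scaling, those counts are given with it. The list counts of Wip1SH alone and of WT + ATMi alone against WT were not taken under other scalings, so whether they turn was not tested. Over all genes, Wip1SH alone was called higher than WT in 16.8% and lower in 15.4%, and WT + ATMi higher in 15.4% and lower in 10%. For p53, the transcription factor that Wip1 and ATM both act on, 33 target genes were measured: 13 were higher than WT in the combined group, 10 were lower and the median difference was 0.16, beside 0.04 over all genes. With medians equal over the tested probes 11 were higher and 11 lower. In Wip1SH alone 13 were higher and 1 was lower (median 0.24), and set directly against Wip1SH the combined group had 2 higher and 11 lower (median -0.23). The lowest difference of this list between the combined group and WT, -1.55, is that of PPM1D, the target of the hairpin. The counts of lower members against WT in the hairpin groups can therefore hold the depletion itself. GADD45A, which slows the cell cycle after damage, read 10.67, 10.83 and 10.82 in WT and 11.82, 11.71 and 11.81 in Wip1SH + ATMi, a rise of 1.00 ± 0.08 (adjusted p = 5.30e-06). GDF15, a secreted stress factor, rose by 0.62 ± 0.10 (adjusted p = 0.000421), the sestrin SESN1 by 0.55 (adjusted p = 0.000204) and the damage sensor XPC by 0.53 (adjusted p = 0.000502). In the other direction SFN, the 14-3-3 sigma protein that holds cells in G2, went from 13.67, 13.78 and 13.67 to 12.79, 12.72 and 12.83 and fell by 0.93 ± 0.08 (adjusted p = 1.01e-05). The fall of SFN was present with the inhibitor alone (-0.59) and was 0.05 in Wip1SH. BAX, a pore-forming effector of apoptosis, fell by 0.63 (adjusted p = 0.000909).

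CDKN1A, the p21 inhibitor of cyclin-dependent kinases, was bright on every array, near the upper end of the signal range. It read 14.81, 14.77 and 14.91 in WT and 14.80, 14.86 and 14.88 in Wip1SH + ATMi, and did not pass the test (0.02 ± 0.08, adjusted p = 0.875). A second, dimmer CDKN1A probe differed from WT by -0.04 in the combined group. In Wip1SH alone that probe differed by 0.58, beside 0.05 for the bright one. MDM2, the ubiquitin ligase of p53, fell by 0.54 (adjusted p = 0.0164), a call that was lost without Wip1SH + ATMi replicate 3 (-0.45, adjusted p = 0.0686). The MDM2 call was also lost under equal medians over all probes and with only the groups compared in the model. Among 16 measured genes of the BCL2 family, which set the threshold for apoptosis, 5 were higher and 1, BAX, was lower, with a median of 0.15. Among 23 genes of DNA damage signalling and repair, 4 were higher and 3 lower, with a median of 0.01. With medians equal over the tested probes 4 were higher and 4 lower, and over all probes 14 higher and 1 lower. BARD1, the partner of BRCA1, rose by 0.84 (adjusted p = 0.000199), and XRCC4, a factor of end joining, fell by 0.93 ± 0.21 (adjusted p = 0.00388).

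Of 40 mitosis genes, 32 were lower than WT in the combined group and 0 were higher, with a median of -0.45, and Wip1SH alone gave 33 lower and the same median, whereas the inhibitor alone gave 3 lower and a median of -0.04. The medians over the 3 combined arrays were -0.42, -0.50 and -0.48. Under equal medians over all probes, the mitosis list held 7 lower and 4 higher genes and still lay 0.40 below the median of all genes, beside 0.49 below in the normalization used here. The motor gene KIF20A fell by 1.06 ± 0.11 (adjusted p = 2.93e-05), the transcription factor gene FOXM1, which drives the mitotic programme, by 0.91 (adjusted p = 2.45e-05); a second FOXM1 probe differed by -0.94. KIF23, a kinesin of cytokinesis, read 8.74, 8.53 and 8.5 in WT and 7.72, 7.61 and 7.67 in the combined group (-0.92 ± 0.10, adjusted p = 3.19e-05). CDC20, an activator of the anaphase-promoting complex, read 11.46, 11.40 and 11.51 against 10.58, 10.84 and 10.53 (-0.81 ± 0.09, adjusted p = 4.87e-05). The groups did not overlap in either gene.

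Promoters of mitosis genes often hold the cell cycle homology region, TTTGAA, through which the DREAM complex represses them. The promoter windows of KIF23 and CDC20 are shown because they are the 2 members with this motif and the smallest adjusted p against WT. They run from 250 bases before to 50 bases after the gene start, from RefSeq on GRCh38.p14, and read along the gene's strand, with matches to TTTGAA on either strand in capitals. KIF23 lies on the plus strand at chr15:69414099-69414398, with a match 55 bases before the start, and CDC20 on the plus strand at chr1:43358731-43359030, with matches 178 bases (minus strand) and 65 bases before it.
KIF23: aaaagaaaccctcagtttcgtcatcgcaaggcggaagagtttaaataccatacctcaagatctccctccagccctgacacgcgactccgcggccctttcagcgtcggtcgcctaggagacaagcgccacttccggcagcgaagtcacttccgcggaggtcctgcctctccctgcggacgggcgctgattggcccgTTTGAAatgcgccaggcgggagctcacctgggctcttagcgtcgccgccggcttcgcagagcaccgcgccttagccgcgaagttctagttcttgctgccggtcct
CDC20: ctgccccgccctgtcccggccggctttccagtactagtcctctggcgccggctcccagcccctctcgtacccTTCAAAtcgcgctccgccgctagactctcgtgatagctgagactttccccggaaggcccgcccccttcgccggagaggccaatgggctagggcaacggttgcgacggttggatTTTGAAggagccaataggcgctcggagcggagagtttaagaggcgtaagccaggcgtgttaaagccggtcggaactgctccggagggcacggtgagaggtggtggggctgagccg
Of the 34 mitosis genes with a RefSeq promoter, 23 (67.6%) held TTTGAA on either strand, beside 15.4% of all 27305 promoters and 9.95% of those of tested genes. CCAAT, the box bound by NF-Y, was present in 26 of 34 (76.5%), beside 35.7% of all promoters and 36.9% of those of tested genes. These are matches of letters in a window, not measured binding.

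Of 36 DNA replication genes, 9 were lower and 0 higher than WT in the combined group (median -0.06), which became 1 lower and 20 higher under equal medians over all probes, whereas Wip1SH alone had 21 lower (median -0.36). Set against Wip1SH directly, 14 replication genes were higher in Wip1SH + ATMi and 0 were lower (median 0.21). The medians of the combined arrays, -0.05, -0.09 and -0.10, did not overlap with those of the Wip1SH arrays, -0.34, -0.40 and -0.37. MCM5, a subunit of the replicative helicase, read 9.94, 9.89 and 9.79 in WT, 8.65, 8.94 and 8.89 in Wip1SH and 9.43, 9.45 and 9.31 in the combined group. MCM5 fell by 0.48 ± 0.09 against WT (adjusted p = 0.00138) but was 0.57 higher than in Wip1SH (adjusted p = 0.00128). GINS3, a helicase cofactor, fell as far as in Wip1SH alone, by 1.30 ± 0.12 (adjusted p = 1.14e-05). The E2F motifs TTTGGCGC and TTTCGCGC, searched on both strands, were each present in 5 of 31 replication promoters (16.1%), beside 0.659% and 0.546% of all promoters. Among promoters of tested genes each was present in 1.09%. Replication-dependent histone genes, 18 measured, were 8 higher and 2 lower, with a median of 0.39. H4C14 was the most changed of them (1.46 ± 0.12, adjusted p = 8.56e-06); histone genes are near copies of each other and their probes may share signal.

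ATF4 is the transcription factor of the amino acid response. Of 30 measured genes of that response, 20 were higher than WT in the combined group and 2 were lower, with a median of 0.36; the counts were 20 higher and 4 lower in Wip1SH and 9 higher and 3 lower with the inhibitor alone. Of the genes, 18 were higher than WT in both hairpin groups. The share of all genes higher in both was not computed, and both comparisons use the same WT arrays, so this count has no background beside it. Set directly against Wip1SH, 8 were higher and 4 lower in the combined group, which became 3 higher and 7 lower with medians equal over the tested probes. The combined arrays had list medians of 0.38, 0.32 and 0.49. PPP1R15A, which restores translation by directing dephosphorylation of eIF2 alpha, read 10.47, 10.45 and 10.61 in WT and 11.76, 12 and 11.98 in Wip1SH + ATMi (1.40 ± 0.09, adjusted p = 2.30e-06). TRIB3, a pseudokinase induced by ATF4, read 10.85, 10.83 and 11.02 against 12.06, 12.14 and 12.10 (1.2 ± 0.07, adjusted p = 7.71e-07). The secreted factor STC2 rose by 0.87 (adjusted p = 3.72e-06). No array of the combined group overlapped with WT in these 3 genes.

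The composite C/EBP-ATF element carries the core TGATGNAA. It was present on either strand in 6 of 26 promoters of the ATF4 list (23.1%), namely those of AARS1, ASNS, ATF3, CHAC1, SLC3A2 and SLC7A1, beside 3.67% of all promoters and 1.83% of those of tested genes. The windows of SLC7A1 and CHAC1 are shown as the 2 members with the motif and the smallest adjusted p. SLC7A1 lies on the minus strand at chr13:29595639-29595938, with the match from base 8 after the start, and CHAC1 on the plus strand at chr15:40953221-40953520, with a match on the minus strand 209 bases before it.
SLC7A1: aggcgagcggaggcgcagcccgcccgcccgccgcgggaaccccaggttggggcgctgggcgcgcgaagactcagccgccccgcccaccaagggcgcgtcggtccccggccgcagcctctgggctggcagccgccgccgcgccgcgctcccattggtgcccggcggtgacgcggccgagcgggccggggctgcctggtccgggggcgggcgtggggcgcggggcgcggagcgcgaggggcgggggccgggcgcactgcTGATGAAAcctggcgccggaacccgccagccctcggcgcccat
CHAC1: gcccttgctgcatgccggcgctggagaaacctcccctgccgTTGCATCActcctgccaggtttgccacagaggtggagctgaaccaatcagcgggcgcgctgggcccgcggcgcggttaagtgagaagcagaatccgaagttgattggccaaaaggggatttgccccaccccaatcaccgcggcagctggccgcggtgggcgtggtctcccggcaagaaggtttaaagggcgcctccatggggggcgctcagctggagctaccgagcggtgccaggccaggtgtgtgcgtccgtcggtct
SLC7A1, a transporter of cationic amino acids, read 10.16, 10.20 and 10.29 in WT and 10.81, 10.84 and 10.75 in Wip1SH + ATMi (0.58 ± 0.07, adjusted p = 0.000101). CHAC1, which degrades glutathione, read 7.42, 6.98 and 7.05 in WT, 8.22, 8.32 and 8.20 in Wip1SH and 7.85, 7.98 and 7.71 in the combined group. CHAC1 was above WT (0.70 ± 0.11, adjusted p = 0.000518) and below Wip1SH (-0.40, adjusted p = 0.0245).

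Chaperones and regulators of the endoplasmic reticulum were split, with 6 of 22 higher, 4 lower and a median of -0.04. With medians equal over the tested probes 5 were higher and 5 lower, and over all probes 14 higher and 1 lower. The transcription factor gene XBP1 rose by 0.79 (adjusted p = 3.81e-05) and the calcium-binding chaperone gene CALR, 10.65, 10.77 and 10.78 in WT, fell by 1.10 ± 0.11 (adjusted p = 2.36e-05) to 9.67, 9.65 and 9.57. Targets of NRF2, the factor of the antioxidant response, were split too, with 6 of 20 higher, 4 lower and a median of 0.00 (4 higher and 5 lower with medians equal over the tested probes); HMOX1 led the rises. GCLC, the catalytic subunit for glutathione synthesis, rose by 0.85 (adjusted p = 9.51e-05). NQO1, a quinone reductase, rose by 0.88 ± 0.07 (adjusted p = 6.94e-06), less than with the inhibitor alone (1.14). The NRF2 core TGACNNNGC was found in 5 of 15 promoters of this list (33.3%), beside 13.6% of all and 15.3% of those of tested genes. MTF1, the zinc sensor that drives metallothionein genes, fell by 1.39 ± 0.12 (adjusted p = 1.03e-05), from 8.78, 8.69 and 8.56 to 7.38, 6.99 and 7.49, while 2 of the 7 measured genes of the metallothionein list were higher and MTF1 was the 1 lower member. Of 26 genes of cholesterol and fatty acid synthesis, 2 were higher and 8 lower (median 0.02), which became 14 higher and 0 lower under equal medians over all probes; the inhibitor alone had raised 10 and lowered 0, and 14 were lower in the combined group than in WT + ATMi.

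Several lists of growth and housekeeping genes held mostly lower members. All 27 measured proteasome genes had differences below 0, and 21 were called lower and 0 higher (median -0.39), against 8 in Wip1SH and 13 in WT + ATMi. The arrays of the combined group had medians of -0.41, -0.36 and -0.41. PSMD3, a subunit of the regulatory particle, read 8.71, 8.72 and 9.03 in WT and 8.04, 7.57 and 7.91 in Wip1SH + ATMi (-0.98 ± 0.14, adjusted p = 0.000238). Under equal medians over all probes 1 proteasome gene was lower and 1 higher, and the list lay 0.39 below the median of all genes.

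Of 29 genes of MYC and ribosome biogenesis, 18 were lower and 1 higher (median -0.34); under equal medians over all probes 3 were lower and 5 higher, at 0.29 below all genes. MYC read 12.15, 12.05 and 12.12 in WT and 11.41, 11.58 and 11.59 in the combined group, fell by 0.58 ± 0.09 (adjusted p = 0.000307); a second probe differed by -0.85. Oxidative phosphorylation genes were 14 lower and 0 higher of 31 (median -0.19), with NDUFS7 of complex I at -0.93 (adjusted p = 9.22e-05); that list had 3 lower and 10 higher under equal medians over all probes. Cytosolic heat shock chaperones were 10 lower and 0 higher of 18 (median -0.30), which became 1 and 1 under that scaling. In contrast, cytosolic ribosomal protein genes had 4 higher and 2 lower of 33 (median 0.02), and 3 higher and 5 lower with medians equal over the tested probes.

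Glycolysis and hypoxia genes were 4 higher and 13 lower of 28 (median -0.11), which became 14 higher and 2 lower under equal medians over all probes. The higher genes numbered 2 without WT replicate 2, Wip1SH + ATMi replicate 1 or Wip1SH + ATMi replicate 3. SLC2A3, a glucose transporter, fell by 1.40 ± 0.11 (adjusted p = 6.94e-06), from 8.0, 8.06 and 8.16 to 6.66, 6.74 and 6.62. Lysosome and autophagy genes were 9 higher and 3 lower of 23 (median 0.16), among them MAP1LC3B, which marks autophagosomes, with a rise of 0.98 ± 0.10 (adjusted p = 2.17e-05). Of the 9 TXNIP and arrestin-domain genes, 3 were higher and 1 lower.

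Immediate-early genes, which respond first to growth and stress signals, were 12 higher and 1 lower of 21 (median 0.27), with 8 higher when Wip1SH + ATMi replicate 3 was left out. EGR1, a zinc-finger transcription factor, read 9.64, 9.69 and 9.59 in WT and 11.15, 11.02 and 11.14 in the combined group (1.46 ± 0.08, adjusted p = 4.56e-07). ERK feedback genes were 4 higher and 4 lower of 18. They were 12 higher and 0 lower under equal medians over all probes, and 4 higher and 5 lower over the tested probes. NF-kB targets and cytokines were 3 higher and 6 lower of 13, and 5 higher and 2 lower under equal medians over all probes. CXCL8, the chemokine interleukin-8, read 7.34, 7.32 and 7.33 in WT, 8.26, 8.37 and 8.5 in Wip1SH, 8.0, 7.96 and 7.97 in WT + ATMi and 8.72, 8.68 and 8.62 in Wip1SH + ATMi, a rise of 1.34 (adjusted p = 4.49e-07). A second CXCL8 probe rose by 0.71. Interferon response genes were 6 higher and 9 lower of 24, with 3 higher without Wip1SH + ATMi replicate 2, and 9 higher and 2 lower under equal medians over all probes. IRF1, an interferon-regulated transcription factor, rose by 1.55 ± 0.18 (adjusted p = 6.63e-05), and the ubiquitin-like modifier ISG15 fell by 0.83 (adjusted p = 5.28e-05). With the inhibitor alone, IRF1 differed from WT by 1.30 and ISG15 by -0.50.

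Genes of Wnt feedback and the intestinal stem cell were 6 lower and 0 higher of 14 (median -0.36), or 2 and 2 under equal medians over all probes; DKK1, a secreted Wnt inhibitor that is itself a target, fell by 1.01 (adjusted p = 7.29e-06). Mesenchymal and YAP-type genes were 3 higher and 3 lower of 17, with 1 higher without Wip1SH + ATMi replicate 3 and 9 higher and 2 lower under equal medians over all probes. THBS1, an extracellular matrix protein, fell by 1.09 (adjusted p = 1.12e-05). Of the 10 tested markers of colon epithelium, 5 were higher and 3 lower (median 0.29). Among the lower ones were 2 keratin genes of simple epithelia: KRT8 went from 14.14, 14.13 and 14.09 to 13.15, 13.22 and 13.07 (-0.97, adjusted p = 2.36e-05), and KRT19 fell by 0.71 (adjusted p = 6.82e-05). The intestinal transcription factor gene CDX2, one of the 5 higher markers of colon epithelium, rose by 0.42 (adjusted p = 0.00194). Among 12 genes of intestinal differentiation 3 were higher and 5 lower, or 4 and 3 under equal medians over all probes.

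The chromatin lists had medians of -0.11 to 0.04. Polycomb genes, which encode repressive histone modifiers, were 9 higher and 1 lower of 25 (median 0.04). Histone variants and their chaperones were 2 higher and 5 lower of 24, the latter being 3 without Wip1SH + ATMi replicate 3, and 10 higher and 0 lower under equal medians over all probes. MACROH2A1 differed by -0.09 (adjusted p = 0.346), with 2 further probes at 0.20 and -0.29, and MACROH2A2 was higher by 0.31 (adjusted p = 0.00412). DNA methylation genes were 2 higher and 3 lower of 12, with 1 higher without WT replicate 2 or Wip1SH + ATMi replicate 1, and 5 higher and 1 lower under equal medians over all probes. UHRF1, which brings DNMT1 to replicated DNA, fell by 0.63 (adjusted p = 9.24e-05), and DNMT1 fell by 0.25 (adjusted p = 0.0165), a call that was lost without WT replicate 3 (-0.22), Wip1SH + ATMi replicate 2 (-0.22) or replicate 3 (-0.24) and turned to 0.16 under equal medians over all probes. Of the pluripotency genes 3 were measured and KLF4, one of the reprogramming factors, rose by 0.80 ± 0.08 (adjusted p = 2.69e-05), from 9.19, 9.05 and 9.15 to 9.94, 9.79 and 10.05; a second probe gave 0.43. POU5F1 did not reach the tested set.

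**Figure D3:**
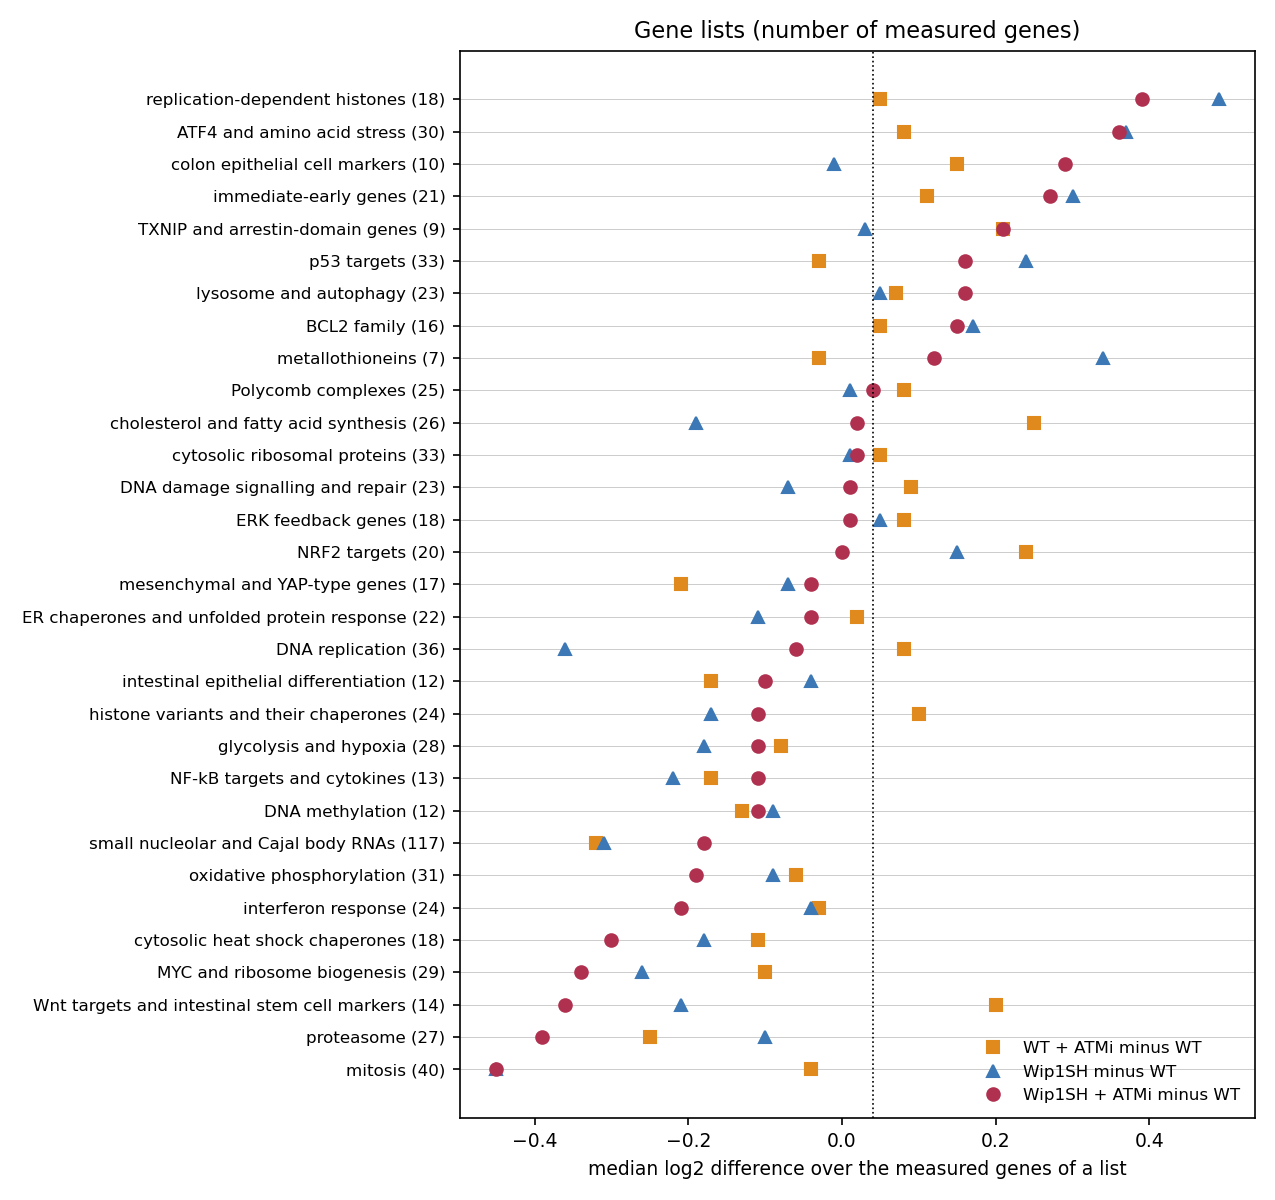
The median log2 difference from WT over the measured genes of a list (number in brackets) is shown for WT + ATMi, Wip1SH and Wip1SH + ATMi. The pluripotency genes and the markers of other cell types are left out. The dotted line is the median of all genes in the combined group, 0.04. Mitosis, proteasome and ribosome biogenesis lie to the left and replication-dependent histones and ATF4 targets to the right.

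The combined group also differed from each single condition. Against Wip1SH, 2750 genes (23.3%) were called, 1687 higher (14.3%) and 1063 lower (9.02%), and against WT + ATMi 2495 genes (21.2%), 1232 higher (10.5%) and 1263 lower (10.7%). To find genes that lay beyond all 3 other groups, the least of the 3 differences was tested per gene, which called 72 genes (0.611%), 38 above (0.322%) and 34 below (0.289%). That count depends on single arrays: it was 10 without Wip1SH + ATMi replicate 1 or 2 and ran up to 74 without WT replicate 1. It was 0 with the detected-probe number of each array in the model.

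FGFR3 lay above the nearest group by 1.35 (adjusted p = 6.05e-05; 0.38 with the mean of its probes, adjusted p = 0.159) and HMOX1 by 0.88 (adjusted p = 0.000244). In 18 of the 72 genes neither single condition passed the test against WT, which does not show that neither changed them. Of all 11785 genes, 7991 did not pass in Wip1SH and 8783 did not in WT + ATMi. The share that passed in neither was not computed, so the count of 18 has no background beside it. GSDMB, a member of the pore-forming gasdermins, is one of the 18. It read 7.95, 7.76 and 8.03 in WT, 7.84, 7.98 and 7.82 in Wip1SH, 7.95, 8.04 and 8.09 in WT + ATMi and 8.90, 9.11 and 8.99 in Wip1SH + ATMi. The combined arrays lay above all 9 others, by 0.97 over the nearest group mean (adjusted p = 0.000522), and 2 further probes differed from WT by 0.89 and 0.58.

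Below all groups lay TGM2 (by 0.96, adjusted p = 0.000522), CHPF (by 0.82, adjusted p = 0.00420), EMP1 and ZBED2. EMP1, an epithelial membrane protein gene, read 10.95, 10.88 and 10.86 in WT, 10.30, 10.35 and 10.31 in Wip1SH, 10.55, 10.48 and 10.48 in WT + ATMi and 9.60, 9.61 and 9.67 in Wip1SH + ATMi, at least 0.69 below each group mean (adjusted p = 0.000522). ZBED2, a zinc-finger gene, read 9.54, 9.65 and 9.74 in WT, 9.38, 9.39 and 9.32 in Wip1SH, 9.37, 9.23 and 9.33 in WT + ATMi and 8.53, 8.51 and 8.65 in the combined group. It lay 0.75 below the nearest mean (adjusted p = 0.00122). Neither gene's combined arrays overlapped with any other array. The calls of 9 further genes with large distances were lost when any of 2 to 12 single arrays was left out: ARIH2OS (0.82), CELF6 (0.82), PRSS8 (0.60), TMEM116 (0.59) and MZF1 (0.57) above, and PTGES (-0.81), CLPTM1 (-0.73), SSH1 (-0.68) and ESS2 (-0.65) below. Their adjusted p-values of 0.0135 to 0.0435 rose to at most 0.0598 for ARIH2OS and 0.151 for PRSS8. A second ESS2 probe differed from WT by 0.94.

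The 2 by 2 layout allows the combined difference to be set against the sum of the single differences, Wip1SH minus WT and WT + ATMi minus WT. The departure from that sum, on the log2 scale, passed the test in 367 genes (3.11%), 224 upward (1.9%) and 143 downward (1.21%), and 2194 genes had an unadjusted p under 0.05. The count fell to 161 without WT + ATMi replicate 3, and under equal medians over all probes the departures were 11 upward and 256 downward. A departure contains all 4 groups, including the WT arrays.

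Among immediate-early genes 2 of 21, EGR1 and FOS, departed downward (median departure -0.04, beside -0.02 over all genes), and of 30 ATF4 genes 0 departed in either direction. EGR1 read 10.57, 10.75 and 10.50 in WT + ATMi and 11.21, 11.29 and 11.17 in Wip1SH, so the single differences summed to 2.54, and the measured 1.46 departed by -1.08 ± 0.12 (adjusted p = 0.00232). Its combined arrays, 11.02 to 11.15, lay just under the Wip1SH arrays. FOS, a component of AP-1, read 6.20, 5.98 and 5.23 in WT, 6.74, 6.76 and 6.95 in Wip1SH, 7.44, 7.43 and 7.71 in WT + ATMi and 7.09, 6.98 and 7.13 in the combined group. The sum was 2.74, the measured difference 1.27, and the departure -1.47 ± 0.28 (adjusted p = 0.0176), a call lost without WT + ATMi replicate 3 (-1.38, adjusted p = 0.0512). GADD45A read 11.07, 10.95 and 11.12 in WT + ATMi and 12.09, 12.20 and 12.14 in Wip1SH, above the combined arrays, and departed by -0.64 ± 0.11 (adjusted p = 0.0114). GDF15 departed by -0.80 (adjusted p = 0.0111); its arrays read 14.84, 14.65 and 14.73 in WT + ATMi and 14.38, 14.59 and 14.44 in the combined group, near the upper end of the signal range.

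SNAI2, a repressor of epithelial genes, showed opposite single differences. It read 7.76, 7.51 and 7.60 in WT, 9.21, 9.19 and 9.19 in Wip1SH, 6.71, 6.31 and 6.67 in WT + ATMi and 7.65, 7.52 and 7.81 in Wip1SH + ATMi. The combined arrays overlapped with WT (0.04 ± 0.12, adjusted p = 0.827), lay 1.53 below Wip1SH (adjusted p = 2.86e-05) and 1.09 above WT + ATMi (adjusted p = 9.01e-05), and the departure of -0.47 did not pass the test (adjusted p = 0.142). AKR1B10, an aldo-keto reductase, read 8.99, 8.97 and 8.91 in WT, 9.81, 9.66 and 9.82 in Wip1SH, 8.26, 8.39 and 8.42 in WT + ATMi and 8.24, 8.27 and 8.26 in the combined group. It was 0.81 above WT in Wip1SH and 0.70 ± 0.07 below WT in the combined group, and the departure was -0.91 ± 0.10 (adjusted p = 0.00292). Its near copy AKR1B15 departed by -1.16 (adjusted p = 0.00828), and the probes of the pair may share signal. Of the genes that lay beyond all groups, GSDMB departed upward by 1.01 ± 0.13 (adjusted p = 0.00639). CHPF (-0.89 ± 0.14, adjusted p = 0.00828) and CDK6 (-0.73, adjusted p = 0.0135), which is among the largest falls, went further down than the sum.

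**Figure D4:**
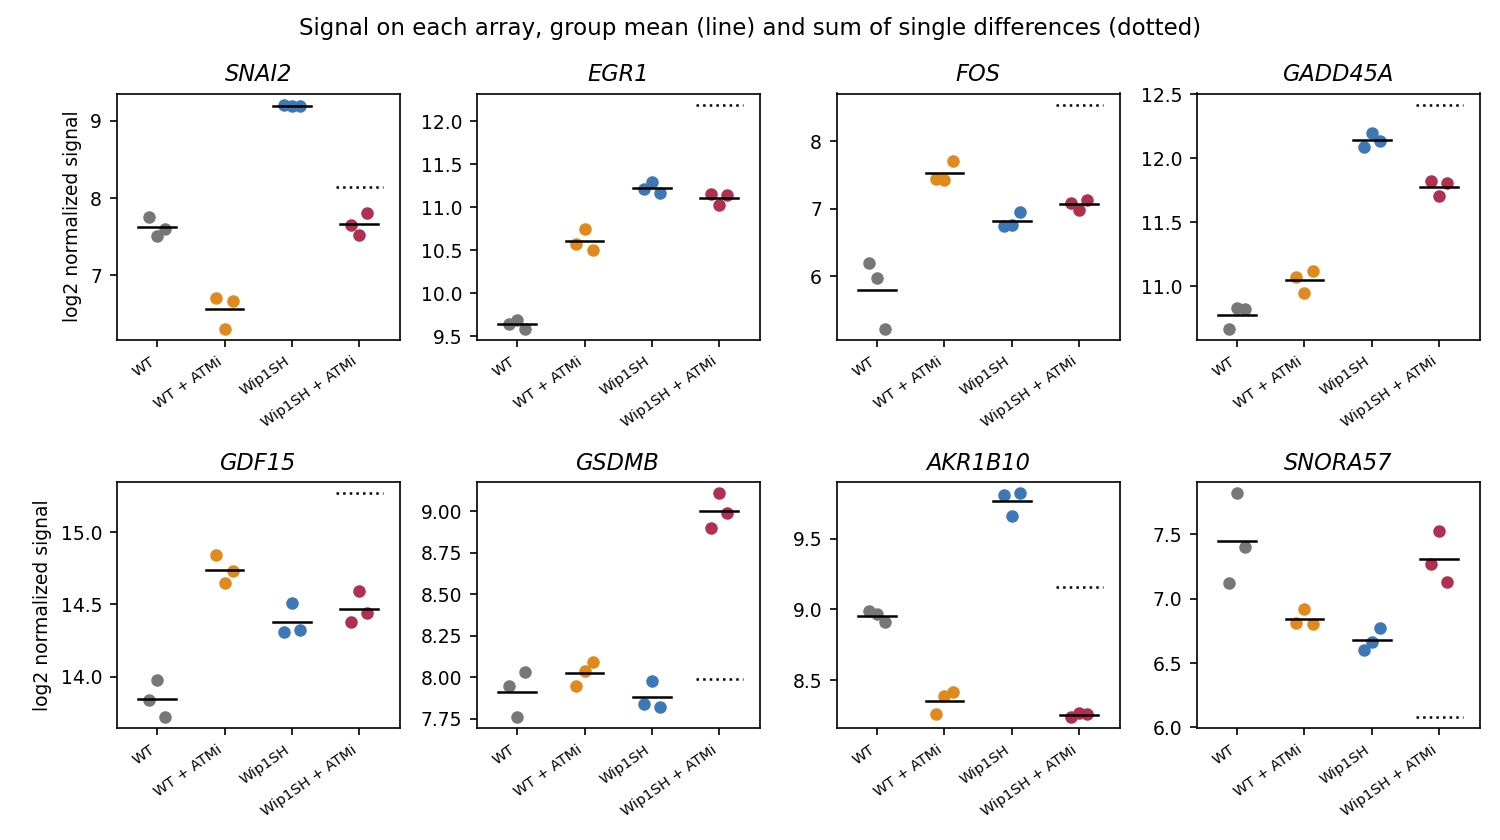
Points give the log2 normalized signal of 8 genes on each array, solid lines the mean of 3 arrays, and dotted lines the level the combined group would have if the single differences added up. EGR1, FOS, GADD45A, GDF15 and AKR1B10 lie below the dotted line, GSDMB and SNORA57 above it, and the departure of SNAI2 did not pass the test.

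Small nucleolar RNAs and Cajal body RNAs guide the modification of ribosomal and spliceosomal RNA. Of 117 measured, 42 were lower and 3 higher in Wip1SH (median -0.31), 45 lower and 2 higher in WT + ATMi (median -0.32), and 24 lower and 8 higher in Wip1SH + ATMi (median -0.18). The last split became 9 lower and 30 higher under equal medians over all probes and 51 lower and 4 higher over the tested probes. The splits of the single conditions were not counted under other scalings. Under equal medians over all probes the list's median in the combined group was 0.17 against WT, beside 0.40 over all genes. It was 0.26 there against Wip1SH (all genes 0.15) and 0.10 against WT + ATMi (all genes -0.01). Against the sum of the single differences, 23 small RNAs departed upward (19.7%, beside 1.9% of all genes) and 0 downward, with a median departure of 0.39 beside -0.02 over all genes. They made up 10.3% of all upward departures. H/ACA members (SNORA, 46 measured) gave 10 of them, C/D members (SNORD, 61 measured) 12 and Cajal body members (SCARNA, 10 measured) 1. The number upward ran from 11 to 20 when single arrays were left out, being 11 without WT + ATMi replicate 1 or Wip1SH + ATMi replicate 1 and 12 without WT + ATMi replicate 3 or Wip1SH replicate 1. It was 2 under equal medians over all probes, where the list's median still lay 0.41 above that of all genes.

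SNORA61 read 11.52, 11.47 and 11.46 in WT, 10.94, 10.82 and 10.86 in Wip1SH, 11.25, 11.01 and 11.26 in WT + ATMi and 11.47, 11.32 and 11.30 in the combined group. Its departure was 0.80 ± 0.12 (adjusted p = 0.00828). SNORD69 read 7.29, 7.51 and 7.37 in WT, 7.05, 6.85 and 7.01 in Wip1SH, 7.09, 7.08 and 7.04 in WT + ATMi and 7.39, 7.53 and 7.41 in the combined group, with a departure of 0.80 ± 0.12 (adjusted p = 0.00806). In both genes the single groups lay below WT and the combined arrays overlapped with WT; these 2 were named after their values were seen, as the small RNAs with the smallest adjusted p. SNORD56 also departed upward (0.92, adjusted p = 0.0124) but stayed below WT. It read 8.76, 8.45 and 8.45 in WT and 7.49, 7.59 and 7.64 in the combined group, near both single groups (-0.98 ± 0.11, adjusted p = 6.14e-05). Many small RNAs are processed from introns of host genes, and an array probe may also read the unspliced host transcript.

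**Figure D5:**
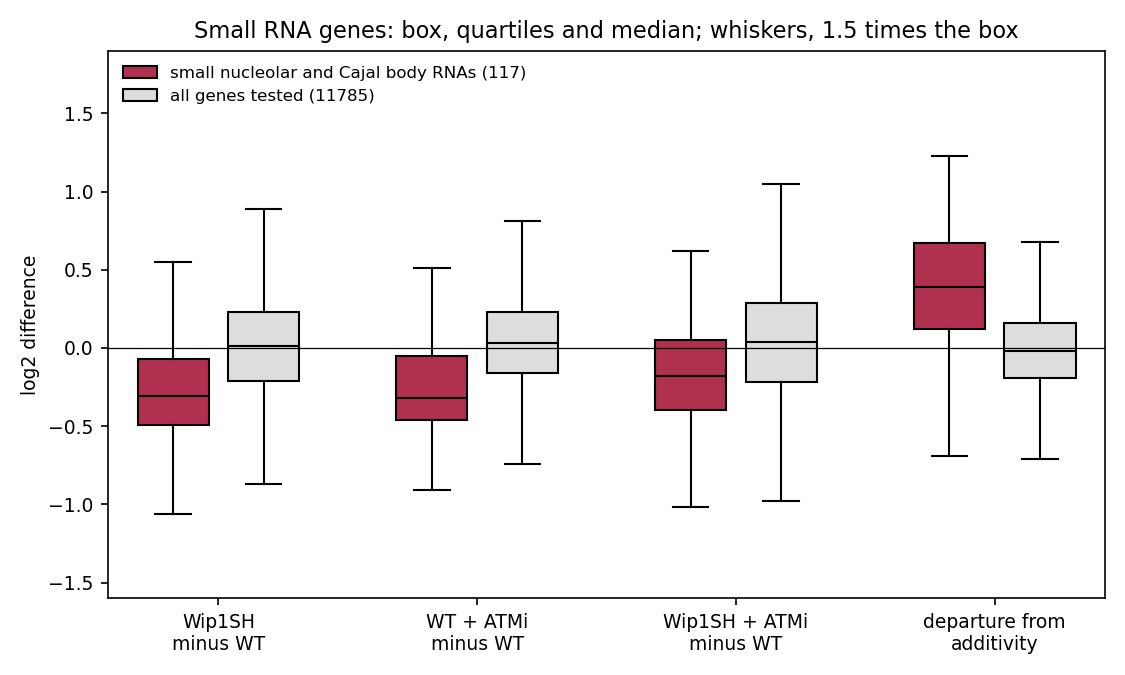
Boxes give the quartiles and median of the log2 differences of 117 small nucleolar and Cajal body RNAs (red) and of all 11785 genes (grey), for each condition against WT and for the departure from additivity; whiskers leave out the farthest genes. The red boxes lie below 0 in both single conditions, reach from -0.40 to 0.05 in the combined one, and lie above 0 for the departure, with a median of 0.39.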

How the data were processed

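Total RNA of 12 HCT116 cultures was hybridised to Illumina HumanHT-12 v4 1-colour bead arrays. The probe signals are intensity values deposited by the authors without normalization across arrays, and the detection p-value of each probe stands beside its signal, per the file headers. Every test used the log2 values that the authors deposited, which have the same distribution on each array; their normalization and the scanner software are not given in the sources used here. The largest gap, 5e-06, was found against values computed from the signals with neqc of limma 3.58.1 (offset 16, quantile normalization) in R 4.3.3.

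Probes with a detection p under 0.05 on at least 3 of 12 arrays were kept (15772 of 47323). Of all probes 30113 had 1 gene symbol in the platform table, 8 had several and 17202 had none and were not used. The brightest kept probe stood for a gene, and 3150 genes had several. With limma (lmFit, eBayes), a mean for each of the 4 groups was fitted over 12 arrays and 11785 genes, with Benjamini-Hochberg adjustment over all genes and a threshold of 0.05. Differences carry standard errors, n = 3 arrays per group. A fold against a group without a detected array is a lower bound, taken from the lowest signal among detected probes. The test of genes beyond all 3 other groups took the largest of 3 p-values of one sign per gene. The number of arrays limits the precision. The fit was tested on simulated data.

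Same-numbered WT and Wip1SH + ATMi arrays had deviations from their group means that correlated at 0.058, -0.0803 and -0.0298, so the numbers were not used to pair them.

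Named genes are PPM1D, ATM, the 12 largest rises and 12 largest falls among called genes without overlap of arrays, up to 8 genes above and 8 below all groups, up to 6 departures each way, list members with the smallest adjusted p, and fixed names (such as MDM2, CDKN1A, MYC, KLF4, DNMT1 and SNAI2). EGR1, GADD45A, GDF15, GSDMB, CHPF, CDK6 and AKR1B10 are described beyond that rule where their departures are given, after their values were seen. The comparison, its members and the 33 gene lists were chosen with earlier results of these data known, so lists are described by counts and medians without a test. Promoters are RefSeq windows on GRCh38.p14.

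Alternatives were other background corrections, scalings, detection filters and probe rules, array weights, a block for the replicate number, the detected-probe number of each array as a covariate, only the groups compared, and each array left out.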

Additional observations from a re-analysis of the deposited data

Results flagged for a closer look

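These 12 genes were singled out because the effect of the inhibitor differed between hairpin cells and parental cells, by the test of the departure from additivity (limma, adjusted p under 0.05). Upward departures were those of ACSF3, a mitochondrial acyl-CoA synthetase (1.34, adjusted p = 0.0477), the 18S ribosomal RNA gene RNA18SN5 (1.30, adjusted p = 0.0231), LMOD3, an actin nucleator of muscle (1.27, adjusted p = 0.00115), SNORA57, an H/ACA small nucleolar RNA (1.23, adjusted p = 0.0128), TXNDC2, a thioredoxin of sperm (1.19, adjusted p = 0.0229), and the actin-binding protein gene TAGLN (1.17, adjusted p = 0.00936). Further TAGLN probes departed by 1.03 and 0.22. LMOD3 read 9.03, 8.93 and 9.0 in WT, 8.24, 8.41 and 8.38 in Wip1SH, 8.24, 8.35 and 8.28 in WT + ATMi and 9.02, 8.85 and 8.87 in the combined group, so that it was lower in each single condition and overlapped with WT in the combined one. SNORA57 read 7.12, 7.82 and 7.40, then 6.60, 6.66 and 6.77, 6.81, 6.92 and 6.80, and 7.27, 7.53 and 7.13 in the same order of groups, with the same pattern.

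Downward departures were those of FOS (-1.47, adjusted p = 0.0176), the secreted protein gene WFDC2 (-1.37, adjusted p = 0.00728), the myosin gene MYH16 (-1.31, adjusted p = 0.0112), LCE1A, a gene of the cornified envelope (-1.29, adjusted p = 0.00855), the aldo-keto reductase gene AKR1B15 (-1.16, adjusted p = 0.00828) and the lipid transfer protein gene VPS13C (-1.15, adjusted p = 0.00232). WFDC2 was detected on 1 array each of WT and the combined group, LCE1A on none of either and VPS13C on none of WT, so those values are close to background. A second VPS13C probe departed by -0.29. AKR1B15 read 6.74, 6.57 and 6.67 in WT, 7.49, 7.48 and 7.62 in Wip1SH, 6.48, 6.06 and 6.28 in WT + ATMi and 5.84, 6.24 and 5.86 in the combined group. Some of the calls of departure, upward and downward, were lost when 1 array was left out. Any of 10 arrays had this effect for ACSF3, any of 6 for RNA18SN5, any of 4 for TXNDC2 and 1 for FOS. The adjusted p rose to at most 0.112 for ACSF3, without Wip1SH + ATMi replicate 2. Without WT + ATMi replicate 3 it rose to at most 0.0622 for RNA18SN5, 0.063 for TXNDC2 and 0.0512 for FOS. Over all alternatives, left-out arrays included, ACSF3 lost its call in 14 of 22 settings, with departures of 0.63 to 1.57. RNA18SN5 lost its call in 7 of 23.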

How the results depend on the processing

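The count of genes called against WT, 4791, was 40 with the detected-probe number per array as a covariate and 3964 to 4726 with single arrays left out. Against Wip1SH (2750) it was 159 with that covariate and 1881 to 2771 without single arrays, and scaling to equal medians over all probes gave 2096 higher and 285 lower, over the tested probes 1228 higher and 1533 lower. Against WT + ATMi (2495) it was 1183 with the covariate, 1289 with equal medians over all probes (506 higher, 783 lower) and 1742 to 2530 without single arrays. Departures (367) numbered 231 with the covariate, 572 without background correction and 161 to 319 without single arrays; they moved over 1.5 times without WT replicate 3 (232), WT + ATMi replicates 1 (196) and 3 (161), Wip1SH replicates 1 (185) and 3 (221) or Wip1SH + ATMi replicates 1 (239), 2 (217) and 3 (232). Genes beyond all 3 groups (72; 38 above, 34 below) numbered 137 with an offset of 50, 210 without background correction, 130 with the strict detection filter, 6 with equal medians over all probes, 0 with the covariate, and 10 to 74 without single arrays, where leaving out any array but WT replicates 1 and 3 moved the count over 1.5 times; equal medians over the tested probes gave 23 above and 54 below. With the replicate number as a block, counts were 4734, 2615, 2368, 295 and 36 in the same order; the numbers do not pair the samples. The cause was not tested, beyond the fewer arrays where some were left out.

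Reversed values were few. The histone variant list, relative to all genes, turned to 0.11 with the covariate and the mesenchymal and YAP-type list to 0.03 with either scaling to equal medians. Against WT, DNMT1 turned to 0.16 with equal medians over all probes, ESS2 to 0.01 with the mean of a gene's probes, TXNDC2 to 0.14 with the covariate, and VPS13C to -0.10 with equal medians over the tested probes and -0.01 with the covariate. Of 93 named genes called against WT, 67 lost the call with the covariate, 9 with equal medians over all probes, and at most 5 under any other setting. The 9 were AKR1B10, BAX, MCM5, MDM2, MYC, MYH16, SSH1, TXNDC2 and UHRF1. Probes near background, such as those of genes not detected in WT, limit the size of their differences.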
